A study of Homo sapiens with 6 samples.

Results

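Kelly and SY5Y, neuroblastoma cell lines published as carriers of the ALK F1174L substitution, were compared with 4 lines published as ALK wild type, which were SK-N-AS, SK-N-DZ, CHP134 and BE(2)-C. The members were therefore 2 of the 6 lines in the series, and the comparison ran over 12870 of the 16223 loci with a gene name, those that reached 1 FPKM (a fragment count scaled by transcript length and library size) in at least 2 lines. The grouping was taken from published genotypes and not from any value in the table. The genotype is not among the sample labels and was not checked here, since an RNA level does not show a point mutation.

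The series was collected to compare MYCN-amplified with MYCN-non-amplified lines, and each ALK group holds both kinds. Kelly is MYCN-amplified and SY5Y is not. In the wild-type group BE(2)-C, CHP134 and SK-N-DZ are amplified and SK-N-AS is not. RPMI was the medium of Kelly and CHP134 and DMEM that of the rest, so that both media also occur in both groups. Total RNA was depleted of ribosomal RNA and sequenced without poly-A selection, with 1 culture and 1 library per line and no treatment. The lines are the replicates, and every p below measures the spread between lines that also differ in patient of origin and in many other lesions. With 2 lines in the F1174L group, the ALK genotype and the other features that Kelly and SY5Y share cannot be told apart.

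ALK encodes a receptor tyrosine kinase of the insulin receptor superfamily that is expressed in the developing sympathetic nervous system, the tissue from which neuroblastoma arises. Ligand binding brings the receptor chains together, and the phosphorylated kinase domain then signals through adaptors to the RAS-ERK and PI3K-AKT pathways and to STAT3. F1174L replaces a phenylalanine of the kinase domain by leucine and lets the kinase signal without ligand. The reference sequence around this codon is shown because the grouping rests on it. The stretch lies at chr2:29443665-29443701 on the minus strand of GRCh37 (hg19), inside coding exon 23 (29443572 to 29443701) of the ALK gene (29415640 to 30144452). The capitals mark the phenylalanine codon that F1174L changes, at bases 29443695 to 29443697, in a protein of 1620 residues.
ALK codon window: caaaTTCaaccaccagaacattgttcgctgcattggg

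The library values summed to between 777111 and 1305116 FPKM. The steps of the lowest values gave the depth of each library relative to BE(2)-C, from 0.743 in CHP134 to 1.28 in SY5Y, with Kelly at 1.04. By this estimate neither F1174L line was shallow, and absolute depth is unknown. The estimate rests on the commonest ratio to BE(2)-C among low values, found at 41 of 823 loci for SY5Y and 80 of 962 for Kelly. MYCN, which checks the amplification status, stood at 184 to 774 FPKM in the 4 amplified lines, at 0.208 in SK-N-AS and at 0.921 in SY5Y. Of 10 neuroblastoma identity genes 9 were tested. HAND2, a regulator of sympathetic identity, stood at 65.8 to 184 FPKM in all 6 lines. Not every identity gene was as even. DBH stood at 0.0960 FPKM in CHP134 and 0.347 in SK-N-AS, and TH at 72.5 in Kelly but 0.0327 in SY5Y. The mean level of the 9 loci, centred on the 6 lines (log2), was -1.28 in SK-N-AS and -0.60 in CHP134. It was highest in SY5Y (0.94) and Kelly (0.79). Markers of other cell types were not spread evenly. The summed level of 7 endothelial and stromal loci reached 884 FPKM in SK-N-AS, with 76.1 in SY5Y and 1.05 to 5.47 in the others, led by LUM and COL3A1. SK-N-AS also had 108 FPKM at PTPRC, a leukocyte marker, where the other 5 lines had at most 0.0658.

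No locus passed the test between the groups. With limma on log2(FPKM + 0.5), no locus of 12870 had a Benjamini-Hochberg adjusted p below 0.05, and all adjusted p rounded to 1. At an unadjusted p below 0.05 there were 269 loci (2.09% of those tested), of which 198 (1.54%) were higher and 71 (0.552%) lower in the F1174L lines. The members are therefore described by their values, by the limma estimate with its standard error, and by whether the groups overlap. Both F1174L lines lay above all 4 wild-type lines at 755 loci (5.87%) and below all 4 at 320 loci (2.49%). This split depended on scaling. Quantile normalization gave 585 above and 580 below, and median-ratio size factors gave 581 and 503, so that the share above went from 70.2% to 50.2% and 53.6%. At 1075 loci (8.35%) the groups did not overlap in the deposited scaling. The minimum for testing selects some of these loci: 50 tested loci reached 1 FPKM in no wild-type line and lay above for that reason, and 374 reached it in no F1174L line, of which 59 lay below. The exact permutation test of 2 against 4 lines cannot give a p under 0.0667.

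ALK RNA was highest in the F1174L lines. The locus held 7.69 FPKM in Kelly and 9.11 in SY5Y. Among the wild-type lines it held 3.38 in SK-N-DZ, 2.31 in BE(2)-C, 2.03 in CHP134 and 0.0171 in SK-N-AS. Each F1174L line thus lay above each wild-type line, and SK-N-AS was far below the rest. The difference was 2.19 on the log2 scale (SE 0.81, 95% interval 0.31 to 4.07, limma unadjusted p = 0.0281, adjusted p = 1, exact permutation p = 0.133). Within the MYCN-amplified lines Kelly exceeded the mean of the 3 wild-type lines by 1.44 (log2), and among the non-amplified lines SY5Y exceeded SK-N-AS by 4.22. The locus (chr2:29413270-30144463 in hg19) merges ALK with 2 other annotated names, so that its value is not that of ALK transcripts alone.

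The ligands, the related receptor and the binding partners of ALK did not separate the groups. LTK, the closest relative of ALK, was at 0.0513 to 0.827 FPKM in the 6 lines, and FAM150B, which encodes an activating ligand of both receptors, at 0.0969 to 0.747, and neither reached the minimum for testing. Midkine (MDK), a heparin-binding growth factor proposed as an ALK ligand, stood at 238 FPKM in Kelly and 329 in SY5Y, inside the wild-type range of 21.9 to 543. Pleiotrophin (PTN), its relative, stood at 3.97 in Kelly and 47.3 in SY5Y against 0.0632 to 159.5 in the wild-type lines. PTPRG, a receptor phosphatase of the family that binds these factors, was highest in Kelly (17.1 FPKM) and was 3.08 in SY5Y, 0.393 in BE(2)-C, 6.72 in CHP134, 1.48 in SK-N-DZ and 5.72 in SK-N-AS. Of the 14 symbols of this list 11 had a locus and 7 were tested. ALK was the 1 locus of these 7 whose groups did not overlap, where 8.35% of all loci did not. The median difference of the 7 was 0.55 (log2) against 0.09 over all loci, and it was 0.075 without BE(2)-C, 0.20 without SK-N-DZ, 0.26 without Kelly and 0.98 without SK-N-AS.

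**Figure D1:**
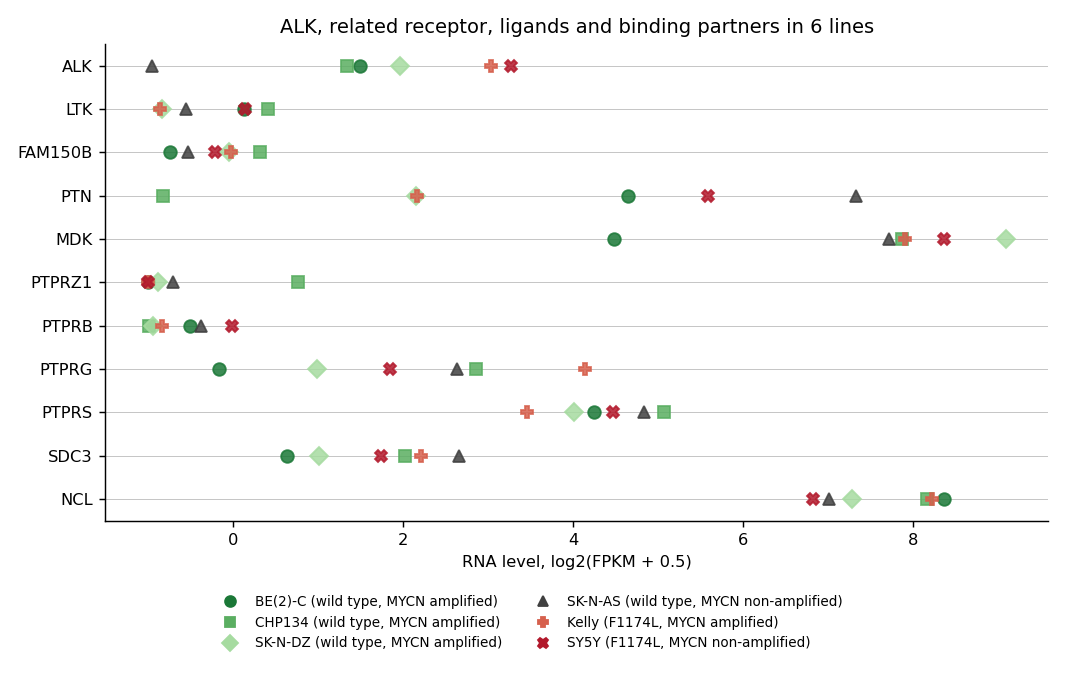
RNA level, log2(FPKM + 0.5), of ALK and of 10 loci of its relative, ligands and binding partners, with 1 point per cell line; red symbols are the F1174L lines and green and grey symbols the wild-type lines. ALK is the locus where both red symbols (7.69 and 9.11 FPKM) lie to the right of all 4 others, while for MDK, PTN, PTPRS, SDC3 and NCL at least 1 of them falls within the spread of the others.

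Among 22 tested adaptors and proximal effectors, which carry the signal from the receptor, 0 lay above and 1 below all wild-type lines. Over all loci 5.87% lay above and 2.49% below, so that in lists of this size such counts do not set the adaptors or the next 2 lists apart. This was PTPN1, a phosphatase that removes phosphate from receptor kinases, at 14.42 FPKM in Kelly and 11.3 in SY5Y against 14.43 in BE(2)-C, 31.4 in CHP134, 23.1 in SK-N-DZ and 14.46 in SK-N-AS, so that Kelly was level with BE(2)-C and SK-N-AS. Of 22 loci of the RAS-RAF-MEK-ERK cascade only the kinase BRAF lay above, with 5.84 FPKM in Kelly, 4.80 in SY5Y and 2.61 to 3.95 in the wild-type lines (log2 difference 0.63, SE 0.37, limma unadjusted p = 0.131). Of 24 PI3K-AKT-mTOR loci only EIF4EBP1, the translation repressor that mTOR inactivates, lay below, with 69.6 FPKM in Kelly, 64.0 in SY5Y and 73.1 to 139 elsewhere. The medians of these 3 lists were 0.06 on the log2 scale each, against 0.09 over all loci.

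RNA of genes that respond to ERK varied widely between the wild-type lines. The mean level of the list, centred on the 6 lines (log2), ran from -1.47 in SK-N-DZ to 1.86 in SK-N-AS, with Kelly (-0.24) and SY5Y (0.38) between them. Of 25 tested loci of ERK output and feedback 0 lay above all wild-type lines and 1 lay below, a share under the 8.35% of all loci but of a small list. DUSP6, a phosphatase induced by ERK that inactivates it, stood at 4.03 FPKM in Kelly and 35.4 in SY5Y, and at 3.28 in BE(2)-C, 0.386 in CHP134, 0.290 in SK-N-DZ and 79.8 in SK-N-AS. ETV5, an ETS factor induced by the pathway, stood at 17.95 in Kelly and 21.8 in SY5Y, against 26.7 in BE(2)-C, 0.807 in CHP134, 0.110 in SK-N-DZ and 23.8 in SK-N-AS, in a locus merged with DGKG. In both genes CHP134 and SK-N-DZ were the low lines, and BE(2)-C or SK-N-AS reached or passed the F1174L lines. IER3, an early response gene, was the locus below: it had 0.383 FPKM in Kelly and 0.142 in SY5Y, against 1.38 in BE(2)-C, 4.06 in CHP134, 0.773 in SK-N-DZ and 132 in SK-N-AS. No F1174L line reached 1 FPKM of IER3, so that it was tested through wild-type lines only. PHLDA1, also induced by growth factors, had 0.353 in Kelly and 1.16 in SY5Y but 0.526 in SK-N-DZ, so that its groups overlapped (12.6 in BE(2)-C, 4.27 in CHP134 and 55.6 in SK-N-AS).

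Of 24 tested loci of the remaining receptor tyrosine kinases 0 lay on one side, beside 8.35% of all loci. RET, the GDNF-family receptor kinase of sympathetic cells, stood at 17.0 FPKM in Kelly and 56.4 in SY5Y, against 25.3 in BE(2)-C, 0.181 in CHP134, 5.70 in SK-N-DZ and 69.3 in SK-N-AS. FGFR1 was 4.80 in Kelly, the lowest of the 6 lines, and 9.42 in SY5Y, against 6.64 to 20.9 in the wild-type lines (a difference of -0.85 on the log2 scale, limma unadjusted p = 0.143).

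In the list of catecholamine genes DBH was the locus that separated the groups. DBH, the enzyme that makes noradrenaline from dopamine, stood at 122 FPKM in Kelly and 73.4 in SY5Y, against 11.2 in BE(2)-C, 0.0960 in CHP134, 24.9 in SK-N-DZ and 0.347 in SK-N-AS. Both F1174L lines lay above all others, and the wild-type lines themselves spanned a wide range. The difference was 4.76 on the log2 scale (SE 1.52, 95% interval 1.22 to 8.31, limma unadjusted p = 0.0151, adjusted p = 1). DBH was the 1 locus of 11 in the catecholamine list that lay above, where 5.87% of all loci did, and 10 of the 11 had a positive estimate, where 58.5% of all loci had one. The list's median was 1.87 (log2), against 0.09 over all loci, but it was 0.81 without Kelly and 1.03 without BE(2)-C.

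The other catecholamine genes overlapped between the groups, and for SLC6A2, SLC18A1 and DDC the highest wild-type line was BE(2)-C. The noradrenaline transporter SLC6A2 stood at 12.4 FPKM in Kelly and 74.9 in SY5Y, against 23.2 in BE(2)-C, 0.924 in CHP134, 5.33 in SK-N-DZ and 3.55 in SK-N-AS (log2 difference 2.55, limma unadjusted p = 0.055). The vesicular transporter SLC18A1 stood at 6.62 and 11.6 in Kelly and SY5Y and at 11.2 in BE(2)-C, with at most 0.926 in the other 3. DDC, which decarboxylates DOPA, reached 295 in Kelly and 47.7 in SY5Y, against 151 in BE(2)-C and 56.3 in SK-N-AS. Tyrosine hydroxylase (TH), the enzyme of the first step, was found at 72.5 FPKM in Kelly alone and at 0.0327 in SY5Y, so that the F1174L lines stood at opposite ends.

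The list of adrenergic regulators holds mainly transcription factors that set the sympathetic identity of these cells, and also DLK1, which is not one. Of its 25 loci 5 lay above and 2 below all wild-type lines, where 5.87% and 2.49% of all loci did. The median difference was 0.47 (log2) against 0.09 over all loci, and it was 0.28 without SY5Y and 0.85 without BE(2)-C. LMO1, a LIM-domain cofactor linked to neuroblastoma risk, stood at 10.6 FPKM in Kelly and 6.999 in SY5Y, against 1.04 in BE(2)-C, 1.44 in CHP134, 2.01 in SK-N-DZ and 0.432 in SK-N-AS. On log2(FPKM + 0.5) the gap between the groups was wider than the spread within either, which depends on the added 0.5. The difference was 2.49 on this scale (SE 0.53, limma unadjusted p = 0.00178, adjusted p = 1). TFAP2B, a factor of sympathetic differentiation, stood at 29.1 in Kelly and 36.8 in SY5Y, against 18 in BE(2)-C, 0 in CHP134, 0.0558 in SK-N-DZ and 5.43 in SK-N-AS (log2 difference 3.82, SE 1.45).

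GATA2, PHOX2A and HAND2 lay above by smaller margins. GATA2 was 93.5 and 84.7 FPKM in Kelly and SY5Y against 6.08 to 57.7 in the wild-type lines (log2 difference 1.81), PHOX2A was 59.1 and 82.1 against 12.4 to 57.0 (1.24), and HAND2 was 145 and 184 against 65.8 to 136 (0.72). For PHOX2A the nearest wild-type line, SK-N-DZ at 57.0, was almost level with Kelly. Among the loci below was DACH1, a repressor, with 2.14 FPKM in Kelly and 1.86 in SY5Y against 3.42 to 9.20 (log2 difference -1.31). INSM1, a neuroendocrine zinc-finger factor, was 0.527 in Kelly and 0.0114 in SY5Y, but 0.484 in SK-N-AS put it among the overlapping loci. ISL1 overlapped as well, because Kelly at 26.8 was below SK-N-DZ at 27.2, while SY5Y reached 92.0.

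In secretory granule genes SCG5 stood apart. SCG5 encodes the chaperone of a prohormone convertase, and it stood at 26.1 FPKM in Kelly and 24.4 in SY5Y, against 5.04 in BE(2)-C, 0.353 in CHP134, 2.33 in SK-N-DZ and 0.477 in SK-N-AS. The F1174L lines were close to each other and above every wild-type line, by 3.76 on the log2 scale (SE 0.79, 95% interval 1.93 to 5.59, limma unadjusted p = 0.00165, adjusted p = 1). SNAP25, a protein of vesicle fusion, also lay above, at 18.7 and 16.4 against 3.63 to 11.7 (1.35), and SYT1, the calcium sensor of the same process, lay below, at 11.49 and 19.2 against 27.3 to 70.4 (-1.33). The peptides themselves varied by line: NPY was 3.38 in Kelly and 546 in SY5Y, and VIP was 0.659 and 3.21 in these lines but 654 in SK-N-AS. Of the 15 tested loci of this list 2 lay above and 1 below, beside 5.87% and 2.49% of all loci.

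Neurite genes and mesenchymal genes had 0 loci on one side, among 24 and 17 tested, and so did the E2F and cell cycle list among 26. With 8.35% of all loci on one side, a count of 0 in lists of this size does not set them apart. In the mesenchymal list VIM, an intermediate filament, stood at 386 FPKM in SY5Y and 17.4 in Kelly, and at 612 in SK-N-AS. SY5Y and SK-N-AS, the MYCN-non-amplified lines, had the highest mean centred levels of this list (0.25 and 1.44 on the log2 scale), and they were also the 2 lines with the highest summed stromal markers. The part of those markers in this result was not tested, and in bulk RNA fewer cells of a type and less RNA per cell cannot be told apart. Among 18 tested p53 targets 3 lay above, beside 5.87% of all loci: PHLDA3, an AKT inhibitor, at 5.31 and 6.06 FPKM against 0.123 to 3.56 (log2 difference 2.04), ZMAT3 at 2.25 and 3.82 against 0.629 to 2.15 (0.96), and RRM2B at 7.43 and 10.1 against 4.02 to 7.30 (0.62). For the last 2 of these the margin over the nearest wild-type line was small.

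**Figure D2:**
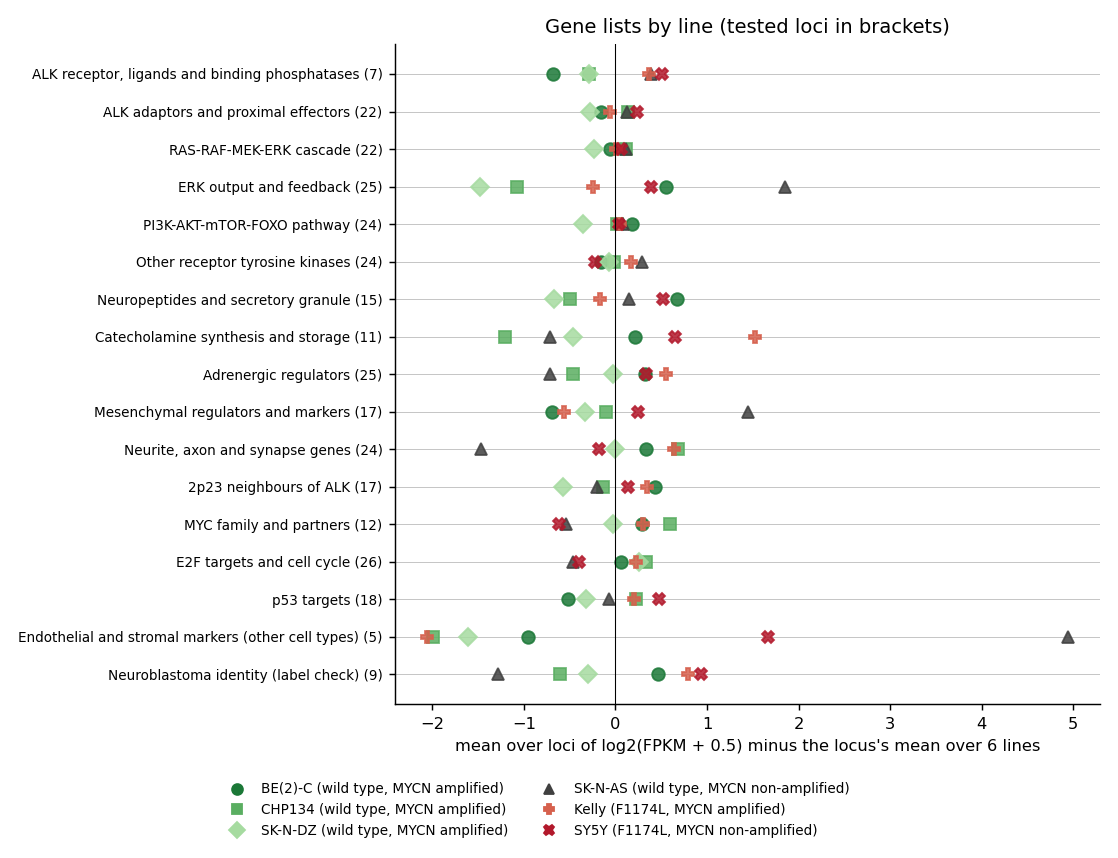
Mean over the tested loci of each list of log2(FPKM + 0.5) minus the locus's mean over the 6 lines, with 1 point per line and the number of tested loci in brackets. Both red F1174L symbols lie to the right of the 4 others for catecholamine synthesis (11 loci) and neuroblastoma identity (9 loci), whereas ERK output and the mesenchymal genes are led by SK-N-AS.

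Genes that neighbour ALK on chromosome 2 were read as well. Of 17 tested neighbours 3 lay above and 0 below all wild-type lines, where 5.87% and 2.49% of all loci did. Their median difference was 0.28 (log2) against 0.09 over all loci, and it was 0.55 without SY5Y and 0.18 without SK-N-DZ. YPEL5 stood at 22.4 FPKM in Kelly and 23.3 in SY5Y against 7.08 to 18.6 in the wild-type lines (0.93), EHD3 at 3.57 and 5.82 against 0.951 to 3.57 (1.23), and TRMT61B at 25.2 and 13.97 against 10.9 to 13.7 (0.61). For EHD3 Kelly was level with SK-N-AS, and for TRMT61B SY5Y was nearly level with BE(2)-C. DNA copy number was not analysed here.

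Beyond the lists, 12 loci with the smallest p above all wild-type lines included several that were close to 0 in the wild-type lines. MAGEA10, a cancer-testis antigen in a locus merged with 2 clone-named transcripts, stood at 18.6 FPKM in Kelly and 3.68 in SY5Y, and at 0 in BE(2)-C and CHP134, 0.0159 in SK-N-DZ and 0.1249 in SK-N-AS. MEF2C, a transcription factor of muscle and neurons, stood at 10.1 and 4.64, and at 0.00618 in BE(2)-C, 0.864 in CHP134, 0.0118 in SK-N-DZ and 0.142 in SK-N-AS. No wild-type line reached 1 FPKM of either. Both were tested only because Kelly and SY5Y reached that level, as were AKR1E2, SV2C and KCNH1 among these 12, so that their place among the smallest p was favoured by the minimum and is no support for a difference. The log2 differences were 4.07 for MAGEA10 and 3.42 for MEF2C. The added 0.5 sets the size of such differences at loci near 0.

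SV2C, a synaptic vesicle glycoprotein, was 2.56 FPKM in Kelly and 10.9 in SY5Y, against 0.655 in CHP134 and at most 0.0138 in the other wild-type lines. SLC8A3, a sodium-calcium exchanger, was 6.56 and 11.8, against 2.14 in SK-N-DZ and at most 0.000559 elsewhere. KCNH1, a voltage-gated potassium channel, was 3.03 and 7.25, against 0.0369 to 0.999. In all 3 genes 1 wild-type line held most of that group's signal, and SY5Y was above Kelly. TCEAL5 and TCEAL7, neighbouring members of a family of small nuclear proteins on chromosome X, were 5.55 and 25.7 in Kelly and 9.24 and 48.0 in SY5Y; the wild-type lines had 0.0391 to 1.04 of TCEAL5 and 0 to 17.2 of TCEAL7. AKR1E2, an aldo-keto reductase, was 6.75 and 5.47 against 0 to 0.723 (log2 difference 2.86).

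Among the loci above with the largest differences, RGS5, TMEM98 and HIST1H4L rested on lines that were very low. RGS5, a regulator of G protein signalling, stood at 2428 FPKM in Kelly and 2487 in SY5Y, against 869 in BE(2)-C, 16.6 in CHP134, 9.47 in SK-N-DZ and 2233 in SK-N-AS. TMEM98 stood at 44.5 and 48.2, against 0.127 in BE(2)-C, 0 in CHP134, 35.2 in SK-N-DZ and 16.2 in SK-N-AS. The highest wild-type line was close to the F1174L lines in both, and the 95% intervals of the log2 differences, -0.89 to 9.27 and -0.46 to 7.79, included 0.

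**Figure D3:**
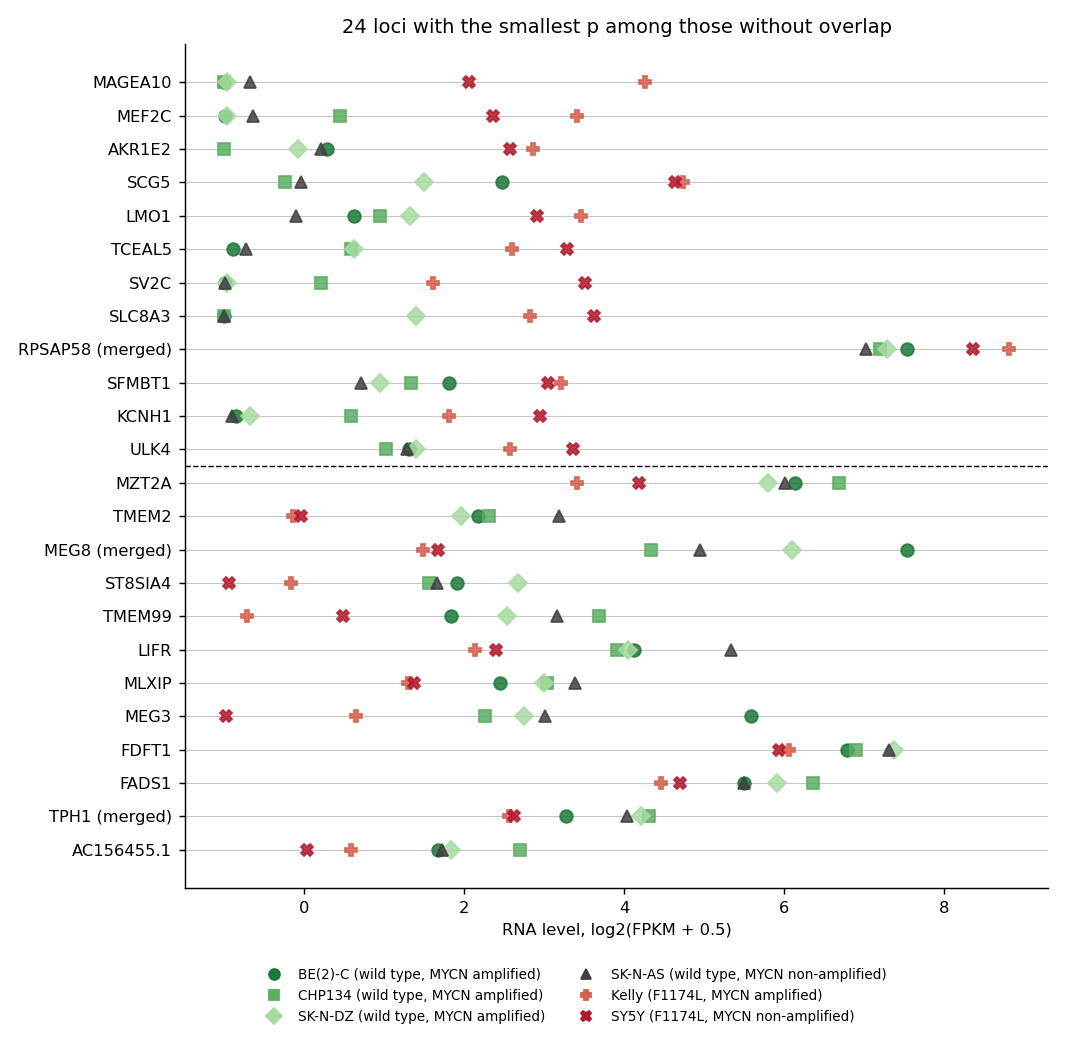
RNA level, log2(FPKM + 0.5), of the 12 loci above and, under the dashed line, the 12 loci below all wild-type lines that had the smallest limma p, with 1 point per cell line. The red F1174L symbols lie on one side of the green and grey wild-type symbols for every locus because the loci were chosen so, as for MZT2A (10.2 and 17.7 FPKM against 54.9 to 102).

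Among the loci below all wild-type lines, MZT2A had the smallest p of all loci tested. It encodes a subunit of the gamma-tubulin ring complex. Its level was 10.2 FPKM in Kelly and 17.7 in SY5Y, against 69.7 in BE(2)-C, 102 in CHP134, 54.9 in SK-N-DZ and 64.1 in SK-N-AS. The wild-type lines were close to each other and well above, and the difference was -2.36 (SE 0.38, limma unadjusted p = 0.000316, adjusted p = 1) on the log2 scale. A near-identical paralog of MZT2A lies on the same chromosome, so that reads could be split between them.

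LIFR, a receptor subunit for leukemia inhibitory factor, stood at 3.90 FPKM in Kelly and 4.77 in SY5Y, against 16.9 in BE(2)-C, 14.5 in CHP134, 16.0 in SK-N-DZ and 39.8 in SK-N-AS (log2 difference -2.08). ST8SIA4, which adds polysialic acid to NCAM1, stood at 0.392 and 0.0212 against 2.46 to 5.90 (-2.51). TMEM2, a cell-surface protein that degrades hyaluronan, stood at 0.412 and 0.478 against 3.40 to 8.63 (-2.49). Both F1174L lines had less than 1 FPKM of these last 2 genes, and all wild-type lines had more than 2. Both genes were tested only because wild-type lines reached 1 FPKM, so that their place among the smallest p is no support for a difference. FDFT1, which makes squalene in sterol synthesis, stood at 66.3 and 60.7 against 109.6 to 166 (-1.09), and FADS1, a fatty acid desaturase, at 21.6 and 25.5 against 44.7 to 81.8 (-1.23). MLXIP, a partner of MLX that responds to glucose, stood at 1.97 and 2.10 against 4.96 to 9.98 (-1.63), and AC156455.1, a transcript that ends just before the MLXIP locus on chromosome 12, at 1.01 and 0.531 against 2.69 to 6.00 (-1.66).

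ARMC3 had the largest difference of all, in a locus merged with RNA5SP304, a pseudogene of 5S ribosomal RNA. Its level was 25290 FPKM in CHP134, 7652 in BE(2)-C and 5937 in SK-N-DZ, but 0.812 in SK-N-AS, 0.229 in Kelly and 0.0876 in SY5Y. SK-N-AS was thus near the F1174L lines and far from its own group. The log2 difference was -10.73 (SE 3.60, limma unadjusted p = 0.0189, adjusted p = 1), and without SK-N-AS it was the 1 locus called (-13.97, adjusted p = 0.00245). ENPP2, the enzyme autotaxin, was similarly split within the wild-type group, at 41.9 in BE(2)-C and 26.9 in SK-N-DZ but 1.59 in CHP134 and 1.03 in SK-N-AS, against 0.0604 in Kelly and 0.172 in SY5Y. Both ARMC3 and ENPP2 were tested only because wild-type lines reached 1 FPKM, so that their lower place is no support for a difference.

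The noncoding loci of the imprinted DLK1-MEG3 cluster on chromosome 14 were lower in both F1174L lines. In this cluster the noncoding RNAs MEG3, MEG8 and MEG9 are expressed from the maternal chromosome and the coding genes DLK1 and RTL1 from the paternal one. MEG8 (chr14:101344494-101492154 in hg19, merged with small RNA genes) stood at 2.30 FPKM in Kelly and 2.68 in SY5Y, against 185 in BE(2)-C, 19.7 in CHP134, 67.7 in SK-N-DZ and 30.3 in SK-N-AS. MEG3 (chr14:101245747-101327368) stood at 1.07 and 0.00868, against 47.6 in BE(2)-C, 4.28 in CHP134, 6.23 in SK-N-DZ and 7.54 in SK-N-AS. MEG9, looked up after the values of the other loci were seen, stood at 0.0272 and 0.135 against 0.484 to 5.17. It was tested only because wild-type lines reached 1 FPKM, so that its lower place is no support for a difference. The groups did not overlap at any of the 3, and the log2 differences were -4.15 (SE 0.82), -3.56 (SE 0.96) and -1.88 (SE 0.76). The unadjusted p in limma were 0.00119, 0.0066 and 0.0405, each with an adjusted p of 1.

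Of the coding genes of the cluster, also looked up after the values were seen, DLK1 and RTL1 overlapped between the groups. DIO3 did not overlap, at 0.329 FPKM in Kelly and 0.519 in SY5Y against 0 to 0.167 in the wild-type lines. It did not reach the minimum for testing. DLK1 stood at 154 FPKM in Kelly and 21.8 in SY5Y, against 97.2 in BE(2)-C, 6.95 in CHP134, 0.412 in SK-N-DZ and 0.141 in SK-N-AS. RTL1 stood at 6.17 and 40.8, against 6.97 in BE(2)-C and 0.295 to 1.19 in the others. BE(2)-C was the wild-type line with high values of both, and it also had the highest MEG3 and MEG8. RTL1 and MEG8 share the same span in the table and strand is not marked by the kit, which leaves their reads inseparable where they overlap.

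The MEG8 and MEG9 loci contain 22 annotated miRNA genes, all of which matched RefSeq, with 40 mature sequences and 36 distinct seeds. Mature miRNAs are too short for these libraries and were not measured. The members that share a seed are shown, because they are the ones with a common seed among the 40 sequences of these loci. Other miRNAs of the cluster were not compared. The capitals mark the seed, bases 2 to 8, and the sequences are those of RefSeq. The first pair, from MIR154 and MIR487A, has the seed AUCAUAC, and the others follow pair by pair.
hsa-miR-154-3p: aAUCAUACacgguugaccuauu
hsa-miR-487a-3p: aAUCAUACagggacauccaguu
hsa-miR-541-3p: uGGUGGGCacagaaucuggacu
hsa-miR-654-5p: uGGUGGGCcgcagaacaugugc
hsa-miR-323b-5p: aGGUUGUCcguggugaguucgca
hsa-miR-410-5p: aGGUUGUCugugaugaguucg
hsa-miR-1185-1-3p: aUAUACAGggggagacucuuau
hsa-miR-1185-2-3p: aUAUACAGggggagacucucau

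The loci above all wild-type lines were not spread evenly over the chromosomes, a pattern looked for after the values were seen. Chromosome 3 had 134 of 726 tested loci above (18.5%), against 5.87% over all loci, and 4 below. From 25 to 75 Mb of its short arm 102 of 246 loci lay above (41.5%) and 0 below. The median difference there was 0.63 (log2), and the median level centred on the 6 lines was 0.48 in Kelly and 0.42 in SY5Y, while it was -0.15 in BE(2)-C, -0.07 in CHP134, -0.39 in SK-N-DZ and -0.24 in SK-N-AS. The share was 35.8% with quantile normalization and 35.4% with median-ratio size factors. DNA copy number of these lines was not analysed here.

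The genes of this stretch given here were chosen after their values were seen. Each lay above all wild-type lines, with a difference larger than the stretch's median of 0.63 (log2). CTNNB1, the beta-catenin gene, stood at 204 FPKM in Kelly and 144 in SY5Y, against 73.0 in BE(2)-C, 72.2 in CHP134, 98.8 in SK-N-DZ and 73.2 in SK-N-AS. ARIH2, a ubiquitin ligase, stood at 50.5 and 40.5 against 20.8 to 22.7, and WDR48, a cofactor of deubiquitinases, at 22.0 and 20.03 against 5.90 to 10.0. The F1174L lines were above by a like amount in all 3, at log2 differences of 1.12, 1.06 and 1.298 with unadjusted limma p of 0.00697, 0.00591 and 0.00573. SFMBT1, a chromatin repressor, stood at 8.75 and 7.79 against 1.13 to 3.03 (1.93), and ULK4, a pseudokinase in the same span as CTNNB1, at 5.47 and 9.78 against 1.54 to 2.13 (1.71). RPSA, a ribosomal protein gene of this stretch, stood at 125.2 and 75.7 against 28.4 to 69.8 (1.24). Its processed copy RPSAP58 on chromosome 19 stood at 449 and 327 against 129 to 185 (1.32), and the reads of the copies cannot be told apart.

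Other stretches of 25 Mb had high shares as well. At 50 to 75 Mb of chromosome 19 45 of 162 loci lay above (27.8%) and 0 below, with a median difference of 0.52 (log2). The median centred level there was 0.38 in Kelly, 0.35 in SY5Y and 0.28 in SK-N-AS. It was -0.15 in BE(2)-C, -0.43 in CHP134 and -0.40 in SK-N-DZ, so that SK-N-AS was near the F1174L lines. At 0 to 25 Mb of chromosome 9 14 of 52 loci lay above (26.9%) and 0 below, with a median difference of 0.66. There the median centred level was 0.45 in Kelly, 0.41 in SY5Y, 0.26 in CHP134 and -0.56 to -0.23 in the other lines. Farther along chromosome 9 the direction was the opposite. From 100 to 125 Mb 22 of 94 loci lay below all wild-type lines (23.4%, against 2.49% over all loci) and 0 above. The median difference was -0.44 (log2), and the median centred level was -0.61 in Kelly, -0.06 in SY5Y, -0.08 in SK-N-DZ and 0.09 to 0.33 in the other lines. Kelly was thus far below the others in this stretch, and SY5Y was level with SK-N-DZ.

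**Figure D4:**
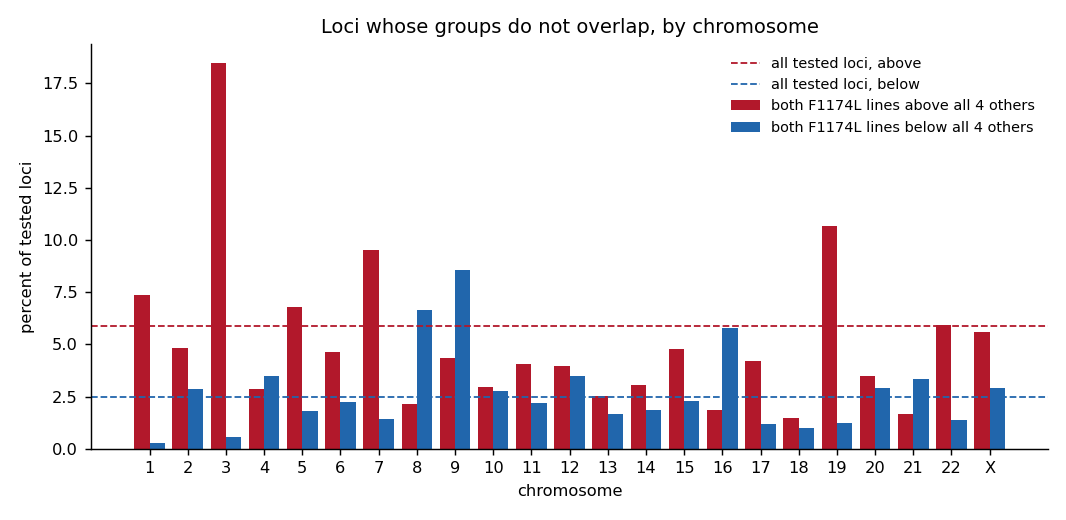
Percent of the tested loci of each chromosome at which both F1174L lines lay above (red) or below (blue) all 4 wild-type lines, with dashed lines for all tested loci (5.87% and 2.49%). Chromosome 3 has the tallest red bar (18.5%).

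The differences within the 2 MYCN groups had little in common over all loci. Kelly minus the mean of the 3 amplified wild-type lines and SY5Y minus SK-N-AS share no library. Over the 12870 loci Pearson's r of these differences was 0.032 and Spearman's rho 0.025, given as a description because loci are not independent replicates. Of the loci, 48.9% had the same sign in both, and 712 were beyond 1 on the log2 scale in both, 259 of them up in both, 127 down in both and 326 in opposite directions. DBH (4.45 and 6.45), SCG5 (3.49 and 4.67), MEF2C (3.91 and 3.0) and LMO1 (2.50 and 3.01) were among those up in both, and MEG3 (-2.88 and -3.98) and MZT2A (-2.79 and -1.83) among those down in both. The groups did not overlap at these named loci, so that the shared sign was given by their choice.

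The difference of these differences was tested as an interaction of ALK group with MYCN status in limma. No locus had an adjusted p below 0.05, and 384 (2.98%) had an unadjusted p below 0.05. The spread in this fit comes from the 3 amplified wild-type lines alone. ARMC3 had one of the largest estimates, -12.65 (limma unadjusted p = 0.00026), where Kelly was far below the other amplified lines and SY5Y and SK-N-AS were both below 1 FPKM. MAGEA1, a cancer-testis antigen on chromosome X, was found at 42.9 FPKM in Kelly, 1.19 in SK-N-AS and at most 0.182 in the other 4 lines. HIST1H3E, a histone gene, was 1215 FPKM in SY5Y and 15.5 to 29.95 in all other lines, Kelly included. At ALK the estimate was -2.78 (limma unadjusted p = 0.0252), with the larger difference between SY5Y and SK-N-AS.

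**Figure D5:**
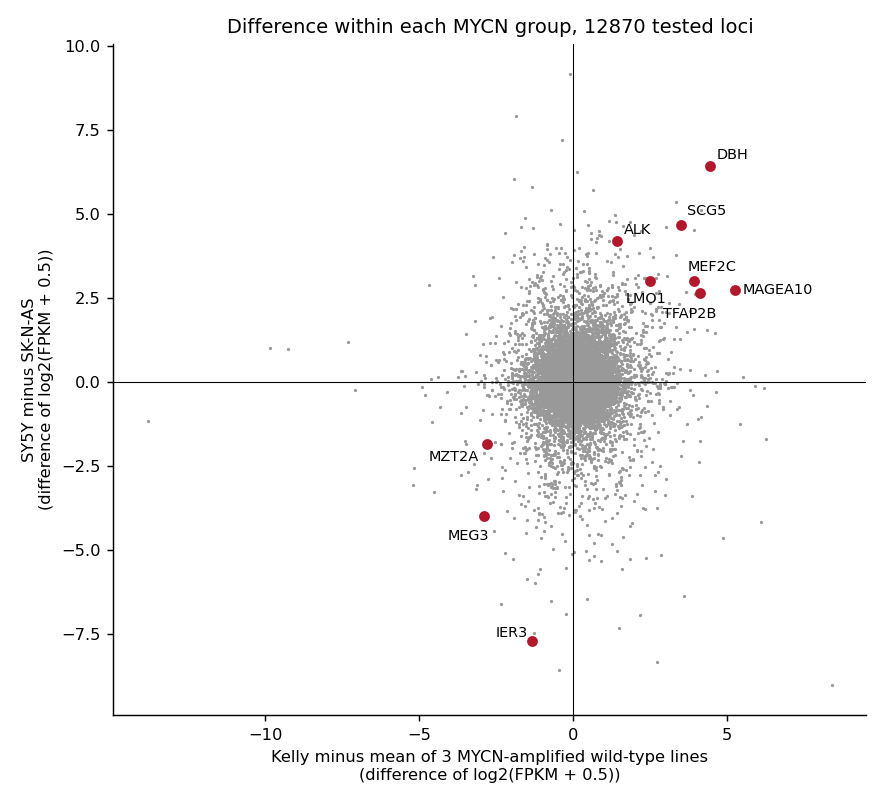
Difference of log2(FPKM + 0.5) between Kelly and the mean of the 3 MYCN-amplified wild-type lines (x axis) against that between SY5Y and SK-N-AS (y axis), with 1 grey point per tested locus and 10 named loci in red. The cloud has little slope (r = 0.032). The named loci share a sign in both differences because the groups do not overlap at any of them.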

How the data were processed

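RNA sequencing values of 6 neuroblastoma cell lines, 1 library each, were analysed. By the labels and methods the authors aligned reads to hg19 with STAR and analysed counts with edgeR, but the deposited table, whose making was not given in the sources used here, instead holds 19170 assembled loci with normalized values. The deposited values were read as FPKM, because they are not whole numbers and their library sums differ. Whole reads were not recovered, so that no count model was used. The steps of values under 0.2 FPKM, compared between BE(2)-C and each line with a tolerance of 0.01 (log2), gave relative depths, and the absolute depth and with it the counting error are unknown. The table spells Kelly as Kelley, and 0 value columns were left unused. The 2947 unnamed loci were not tested, and 3067 of the 16223 with a name join more than 1 gene.

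The test ran on loci that reached 1 FPKM in 2 or more lines, with limma 3.58.1 in R 4.3.3 (eBayes with a trend, no covariate) on log2(FPKM + 0.5). A call needed a Benjamini-Hochberg adjusted p below 0.05 together with a log2 fold change beyond 1 in size. The script was tested on simulated data. An interaction with MYCN status was fitted in the same way. Single values were tested with an exact two-sided permutation test over the 15 splits of the lines. A locus was said to lie above or below when both F1174L lines did so against all 4 others. Named loci are the members of the ALK receptor list, the 12 with the smallest p and the 10 with the largest difference in each direction among those without overlap, the 4 members at most with the smallest p in each list, the leading loci of the interaction, and all members of the ERK, receptor kinase and neuropeptide lists. Other genes named, such as further list members, those of the chromosome 14 cluster and those of chromosome 3, were chosen after their values were seen. The members and the 19 gene lists were chosen with earlier results of these data known. Besides the lists in the text, Schwann and glial markers (4 tested loci, 0 without overlap), immune and blood markers (1 tested, 0) and MYC family genes (12 tested, MGA above and MLXIP below) were examined. Results for some genes are not reported here.

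Alternatives were the pseudocount (0.125 and 2), the filter (none, or 5 FPKM), quantile and median-ratio scaling, the variance model, MYCN status and medium as covariates, amplified lines alone, each line left out, merged loci left out, unnamed loci added, and an adjusted p of 0.1. Those for loci without overlap, the chromosome 3 stretch and the correlation were chosen after seeing the data. The ALK codon was read from GRCh37 with GENCODE 44, and miRNAs from RefSeq. Python 3.11.15 and matplotlib 3.10.9 were used.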

Additional observations from a re-analysis of the deposited data

Results flagged for a closer look

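In 9 of the 74 genes whose difference is printed, 1 wild-type line stood apart from the other 3 by more than chance gives in about 1 of 20 groups. SK-N-AS stood apart in MAGEA10 at 0.1249 FPKM (0 to 0.0159 in the others), in LIFR at 39.8 (14.5 to 16.9) and in ARMC3 at 0.812 (5937 to 25290). CHP134 stood apart in SV2C at 0.655 (0.00388 to 0.0138), in KCNH1 at 0.999 (0.0369 to 0.126), in AC156455.1 at 5.997 (2.69 to 3.06) and in HIST1H4L at 0.905 (366 to 665). SK-N-DZ stood apart in SLC8A3 at 2.14 (0 to 0.000559) and in CTNNB1 at 98.8 (72.2 to 73.2). In MAGEA10, SV2C and KCNH1 all wild-type values were below 1 FPKM. The F1174L group has 2 lines and could not be examined in this way.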

How the results depend on the processing

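No locus was called in 20 of the 21 alternative settings, and 1 (ARMC3, -13.97, adjusted p = 0.00245) was called without SK-N-AS. In the amplified lines alone ARMC3 had an adjusted p of 0.0878. The interaction had no call under its 4 alternatives. The log2 differences of 74 genes, not all of them printed here, kept their direction in every setting run. These 74 are a selected set, and the differences of PTN, MDK, PTPRG, PTPRS, SDC3 and NCL are not given because their direction changed. That of ALK ranged from 1.44 to 2.96 over all settings. Loci lower in both F1174L lines rose in number from 320 to 580 with quantile normalization and 503 with median-ratio size factors. Leaving out each line in turn gave 1041 to 2776 loci above, 472 to 1713 below and 43.1% to 59.8% of the chromosome 3 stretch above, by construction more than with all 6 lines. With median-ratio size factors this share was 35.4%. With a line left out, the medians (log2) of the lists ranged from 0.075 to 0.98 for the ALK receptor list, -0.022 to 0.21 for adaptors, -0.15 to 0.10 for PI3K, -0.20 to 0.41 for receptor kinases, 0.81 to 1.84 for catecholamine genes, 0.28 to 0.85 for adrenergic regulators, -0.20 to 0.21 for the MYC family and 0.55 to 1.48 for neuroblastoma identity. The sign of the adaptor, RAS-ERK, ERK output, PI3K, receptor kinase, mesenchymal, neurite, MYC and E2F medians thus depended on the scaling, a covariate or a single line. No paired analysis was possible because the replicate numbers only name the lines, and a line belongs to 1 group. The unknown depth leaves the error of single values, above all those near 0 FPKM, without an estimate.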
